A study of Mus musculus with 9 samples.

Results

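The mRNAs of 9 matrix enzymes of the citric acid cycle were followed in mouse embryonic stem cells (ESCs) that differed in Myc dose. The 9 genes were Cs, Idh3a, Idh3b, Idh3g, Ogdh, Suclg1, Sucla2, Fh1 and Mdh2. They were found by matching the Ensembl identifiers of the deposited table to these symbols, and each symbol had 1 row among 35771. All 9 passed the filter on low counts that left 13424 genes for testing. Succinate dehydrogenase, which sits in the inner membrane, was left to a list of related genes.

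All cells carried the same alleles, described as Homozygous iMOS T1-Myc; RERT, on a mixed background. As background, iMOS constructs make mosaics of cells with different numbers of extra transgene copies, here of Myc marked by the yellow fluorescent protein EYFP, and RERT is a Cre allele that acts only with tamoxifen. Cells grew on plates coated with gelatin in medium with LIF, the cytokine that keeps ESCs undifferentiated. For the induced populations, cultures were exposed for 24 h to 4-hydroxytamoxifen at 20 µM, and 24 h after its removal cells were sorted by EYFP brightness. Of the resulting libraries, 3 were from cells with 2 extra copies of Myc and EYFP and 3 from cells lacking an extra copy, both from induced mosaic cultures. Another 3 libraries came from uninduced cells, which were also sorted. The label field for treatment repeats the drug for the uninduced samples, whose titles and design text were followed instead. The labels do not say whether replicas were separate cultures, although the design text calls them biological, so the p-values measure only the spread between these libraries. The promoter of the extra Myc copies and the number of cell clones are not given in the sources used here.

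As background, the citric acid cycle is the ring of mitochondrial reactions that oxidises the acetyl group of acetyl-CoA and hands electrons to the respiratory chain as NADH and reduced flavin. Its intermediates also leave the ring to build lipids, amino acids and nucleotides, and anaplerotic reactions, many of them fed by glutamine, put carbon back. Proliferating stem cells use the ring for both ends, and Myc is known as a regulator of metabolic genes, among them genes of glutamine use.

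Differences in these mRNAs between the groups were small, none as large as 1.5-fold. In cells with 2 extra copies against cells with no extra copy, Idh3a and Idh3b rose, by 1.19-fold and 1.11-fold, and the other 7 did not pass the test. That is 2 of 9 higher and 0 lower, where 8.30% of all tested genes were higher and 7.70% lower. The median log2 change was 0.088 over the 9 and -0.012 over all tested genes. The 3 libraries of each group did not overlap for Cs, Idh3a, Idh3b, Idh3g and Fh1, all higher with 2 extra copies, as in 15.4% of tested genes, and for 0 members in the other direction, as in 15.2%. Every adjusted p below comes from edgeR's quasi-likelihood test with Benjamini-Hochberg adjustment over all genes tested, unless another test is named, with calls made below 0.05.

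In cells with 2 extra copies against uninduced cells, Idh3a, Cs, Ogdh and Mdh2 rose, by 1.29-fold, 1.14-fold, 1.08-fold and 1.08-fold. These were 4 of 9 higher and 0 lower, beside 12.8% higher and 12.1% lower among all tested genes. The median log2 change was 0.12 over the 9 and -0.014 over all tested genes. Libraries did not overlap for 6 members, all higher (19.1% of tested genes), and for 0 in the other direction (19.4%). In cells with no extra copy against uninduced cells, Ogdh rose 1.14-fold and was the 1 member called, beside 7.10% of tested genes higher and 6.39% lower. The median log2 change there was 0.042 over the 9 and 0.0022 over all tested genes. Libraries did not overlap for 3 members that were higher (Cs, Ogdh and Sucla2) and 1 that was lower (Idh3g), against 16.1% and 15.4% of tested genes. The 3 comparisons use the same 3 groups, so no pair of them is independent. In bulk libraries such as these, fewer cells that express a gene and less RNA per cell cannot be told apart.

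Facts of the whole series bear on these values. Totals ran from 4165286 to 8872303 rounded expected counts per library, and members had between 243 and 3158 counts in a library. In every pair of replicates the difference exceeded counting noise (chi-square over its degrees of freedom between 1.36 and 2.89), and replicate 1 with 2 extra copies stood apart from replicates 2 and 3 of its group, at 2.55 and 2.89. It was the lowest library of its group for 6 of the 9 members. Levels are in CPM, counts scaled to a common library total after each total was adjusted by its TMM factor. Myc itself averaged 13.3 in the uninduced group, 31.6 where no copy was added and 142 with 2 extra copies, and Mycn averaged 188, 153 and 126. ESC markers were high in all groups, at 2560 to 2853 summed CPM over 7 genes, but some of them changed. With 2 extra copies against no extra copy 4 of 7 were lower (Pou5f1 0.911-fold, Sox2 0.921-fold, Nanog 0.840-fold and Klf4 0.814-fold) and 0 higher. Against uninduced cells Sox2 was lower in both induced groups, at 0.844-fold with 2 extra copies and 0.917-fold without any. Nanog, Esrrb and Klf4 were higher with no extra copy than in uninduced cells, by 1.12-fold to 1.22-fold. The fibroblast list, of which 7 of 9 genes could be tested, summed to 80.3 to 85.3 CPM in uninduced libraries, 124 to 132 CPM with 2 extra copies and 198 to 223 CPM without an extra copy. Its defining gene Lum was at 0 in all libraries but 1, where it had 1 count, and Dcn had at most 3 counts. Against uninduced cells 5 of the 7 tested were called higher and 0 lower in each induced group (Col1a1, Col1a2, Col3a1, Acta2 and Tagln). Their folds were 1.24 to 2.22 with 2 extra copies and 1.79 to 3.66 with no extra copy. Between the induced groups 4 of the 7 were lower with 2 extra copies and 0 higher. Thy1, also of this list, was not called in any comparison (0.688-fold and 0.834-fold against uninduced cells). Of the trophectoderm list 4 of 6 genes could be tested, and they summed to 146 to 158 CPM in uninduced libraries, 185 to 201 CPM with 2 extra copies and 210 to 236 CPM without an extra copy. Its keratins Krt8 and Krt18 were 2.75-fold and 2.97-fold higher with no extra copy than in uninduced cells, while its defining genes Cdx2 and Elf5 were too low to test. Of the 4 tested, 2 were called higher and 0 lower in each induced group against uninduced cells. The lowest log2 change with 2 extra copies there was -0.62, which was not called. Between the induced groups 3 of the 4 were lower with 2 extra copies and 0 higher. The neuroectoderm list, with 5 of 5 tested, summed to 185 to 196 CPM in uninduced libraries, 169 to 184 CPM with 2 extra copies and 186 to 195 CPM without an extra copy, and 3 of 5 were lower and 0 higher with 2 extra copies than with no extra copy. Of 6 extraembryonic endoderm genes 2 could be tested, and their sum was at most 16.7 CPM. The part of these marker genes, of the length trend described below and of replicate 1 in the changes of the enzymes was not tested, and values without that replicate are given beside the results it touches.

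**Figure D1:**
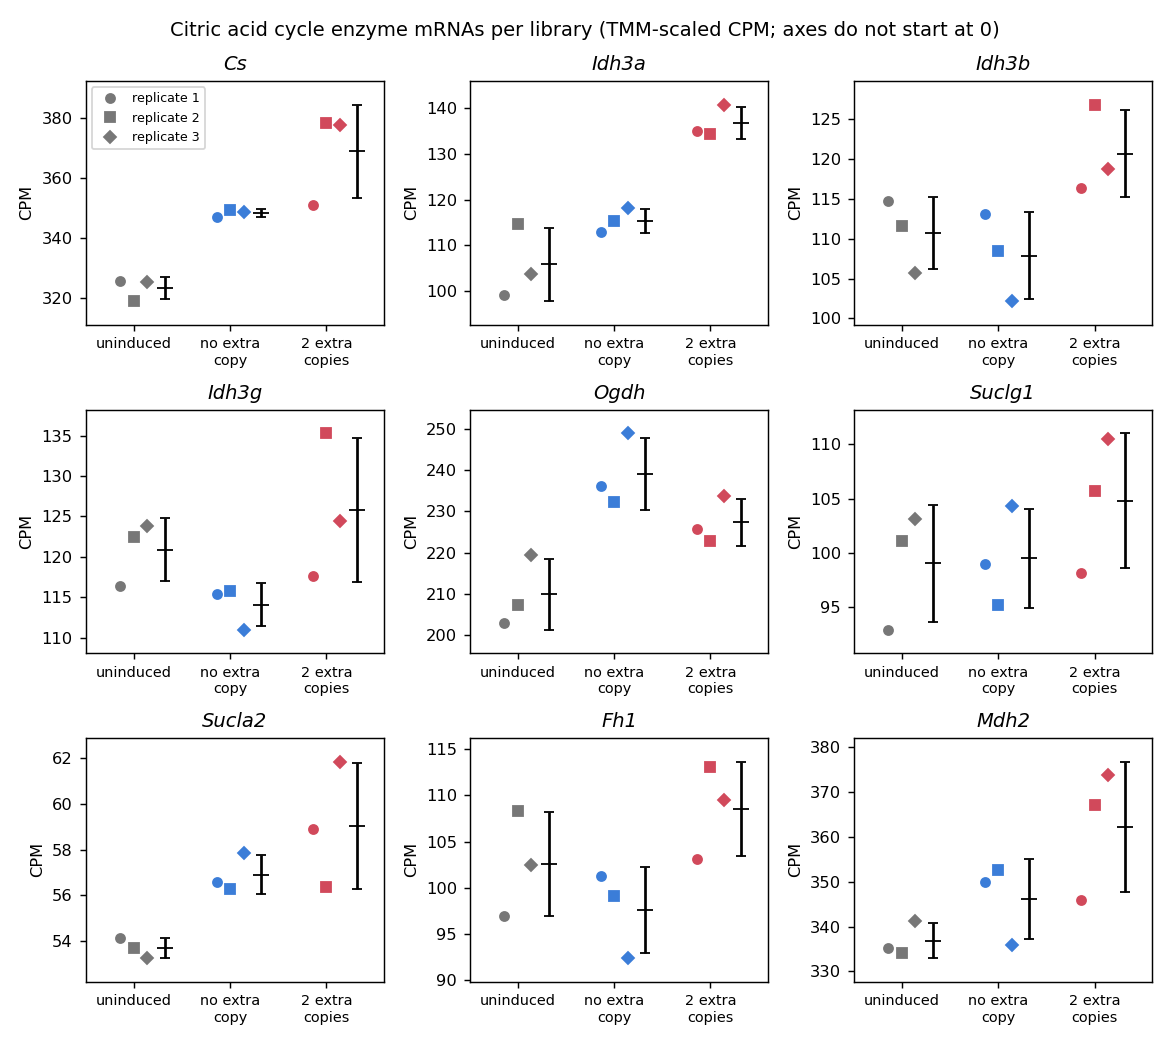
Level of each of the 9 enzyme mRNAs in each library, in CPM after scaling between libraries; circles, squares and diamonds are replicates 1, 2 and 3, and the black mark is the mean with its SD (n = 3). The axes do not start at 0. Idh3a lies at 134 to 141 CPM with 2 extra copies, above every other library, while Ogdh is highest with no extra copy, at 232 to 249 CPM.

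Citrate synthase, encoded by Cs (ENSMUSG00000005683, chromosome 10, 128337734 to 128362479, plus strand, GRCm38), joins acetyl-CoA to oxaloacetate and so starts the ring. Cs stood at 325, 319 and 325 CPM in the uninduced libraries, at 347, 349 and 349 CPM with no extra copy and at 351, 378 and 378 CPM with 2 extra copies. The order was uninduced, no extra copy, 2 extra copies, with no overlap between any 2 groups, and replicate 1 with 2 extra copies lay close to the libraries with no extra copy. The means were 323 ± 3.72, 348 ± 1.28 and 369 ± 15.5 CPM (SD, n = 3 each). Against uninduced cells Cs rose 1.14-fold with 2 extra copies (95% interval 1.08 to 1.20, adjusted p = 0.000263). With no extra copy it was 1.08-fold higher (1.02 to 1.14), which missed the threshold at an adjusted p of 0.0550. Cells with 2 extra copies had 1.06-fold the level of cells with no extra copy (1.00 to 1.12, adjusted p = 0.140). Without replicate 1 with 2 extra copies that last difference was log2 0.13 and passed (adjusted p = 0.00780, where the 20 alternatives to the main analysis ranged from 0.00780 to 0.413). The difference between no extra copy and uninduced passed in 6 of 20 alternatives (0.0204 to 0.188 over all), among them the fit without that library (0.0271), where the log2 change was 0.10 against 0.11 with it. That library is in neither group of this comparison, and leaving it out also changed which genes were tested (13669 in place of 13424).

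The upstream region of Cs is shown because Cs rose against uninduced cells and none of the 4 motifs searched was found there. Windows of 250 bases before to 50 after each annotated start came from RefSeq (GRCm38.p6). Of the 9 members, 8 matched, with 13 windows in all, of which Ogdh had 6; Idh3a was not among them. The 4 motifs, searched on both strands and chosen in part after reading the sequences, were CACGTG, the E-box that Myc and its partner Max are known to bind, TCTCGCGAGA, TGACGTCA, known as the cyclic AMP response element, and CCGGAAG, a core of ETS factor sites. None of the 4 contains another. The 250 bases before the annotated start of Cs on the plus strand, chr10:128337477-128337726, hold no annotated exon base:
Cs upstream: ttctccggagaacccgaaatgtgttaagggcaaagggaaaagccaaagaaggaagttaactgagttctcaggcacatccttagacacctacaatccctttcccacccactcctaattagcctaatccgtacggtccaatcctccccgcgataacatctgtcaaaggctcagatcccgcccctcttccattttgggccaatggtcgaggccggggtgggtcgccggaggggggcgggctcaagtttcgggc

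Isocitrate dehydrogenase of the NAD-dependent kind turns isocitrate into 2-oxoglutarate. It is built from a catalytic alpha subunit, encoded by Idh3a, and the beta and gamma subunits of Idh3b and Idh3g, of which the last is regulatory. Idh3a (ENSMUSG00000032279, chromosome 9, 54586334 to 54604661, plus strand) had 99.1, 115 and 104 CPM in uninduced libraries. It had 113, 115 and 118 CPM with no extra copy, and 135, 134 and 141 CPM with 2 extra copies. The libraries with 2 extra copies lay above all 6 others, and the remaining groups overlapped. Idh3a showed the largest change among the 9 in both comparisons that involve 2 extra copies. It rose 1.29-fold against uninduced cells (95% interval 1.20 to 1.39, adjusted p = 1.57e-06) and 1.19-fold against cells with no extra copy (1.10 to 1.28, adjusted p = 0.000854). Both calls held in 20 of 20 alternative settings, with folds from 1.25 to 1.35 and from 1.16 to 1.21. With no extra copy it was 1.09-fold the uninduced level (1.01 to 1.17, adjusted p = 0.135). That difference reached log2 0.18 and passed without uninduced replicate 2 (adjusted p = 0.0324, with 0.0324 to 0.480 over the alternatives).

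Idh3b (ENSMUSG00000027406, chromosome 2, 130279309 to 130284547, minus strand) had 115, 112 and 106 CPM in uninduced libraries, 113, 108 and 102 CPM without an extra copy and 116, 127 and 119 CPM with 2 extra copies. The libraries with 2 extra copies were the highest, although their lowest, 116 CPM, lay close to the highest of the uninduced ones. Idh3b rose 1.11-fold with 2 extra copies against no extra copy (1.04 to 1.20, adjusted p = 0.0364). This call was lost in 6 of 20 alternatives (adjusted p of 0.00846 to 0.181 over all). It went without replicate 2 with 2 extra copies (0.181), without replicate 2 (0.105) or replicate 3 (0.146) with no extra copy, with library size alone (0.119), with DESeq2 (0.149) and with limma-voom (0.0593). Against uninduced cells the values were 1.09-fold with 2 extra copies (1.01 to 1.17, adjusted p = 0.0747) and 0.977-fold with no extra copy (0.909 to 1.05, adjusted p = 0.738). The first of these passed without replicate 1 with 2 extra copies (0.0232, with 0.0232 to 0.297 over the alternatives).

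Idh3g (ENSMUSG00000002010, chromosome X, 73778963 to 73786897, minus strand) had 116, 123 and 124 CPM in uninduced libraries, 115, 116 and 111 CPM without an extra copy and 118, 135 and 124 CPM with 2 extra copies. Cells with no extra copy were lowest, below all libraries of both other groups, and the other groups overlapped. No change of Idh3g passed the test. It was 1.10-fold higher with 2 extra copies than with no extra copy (1.02 to 1.18, adjusted p = 0.0692), and without replicate 1 with 2 extra copies this was log2 0.19 and passed (0.00576, with 0.00576 to 0.359 over the alternatives). Against uninduced cells it was 1.04-fold (0.969 to 1.12, adjusted p = 0.445) with 2 extra copies and 0.946-fold (0.881 to 1.02, adjusted p = 0.338) with no extra copy.

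The ratio of 2 subunits' counts within a library does not depend on scaling between libraries. The ratios of the Idh3 subunits were chosen after the values had been seen. The counts of Idh3a were 0.851, 0.936 and 0.838 times those of Idh3g in uninduced libraries, 0.978, 0.995 and 1.06 times with no extra copy and 1.15, 0.992 and 1.13 times with 2 extra copies. Every induced library lay above every uninduced one, while the induced groups overlapped. The ratio was 1.24-fold higher with 2 extra copies than in uninduced cells and 1.16-fold higher with no extra copy (each p = 0.1, two-sided exact permutation test, 0.225 after adjustment over 9 ratio tests). With 3 against 3 libraries 0.1 is the smallest p this test can give. Idh3a to Idh3b showed 0.864, 1.03 and 0.981 in uninduced libraries, 0.998, 1.06 and 1.16 with no extra copy and 1.16, 1.06 and 1.18 with 2 extra copies. Here the group with 2 extra copies lay above the uninduced one (1.19-fold, exact permutation p = 0.1, adjusted 0.225) and overlapped the group with no extra copy.

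**Figure D2:**
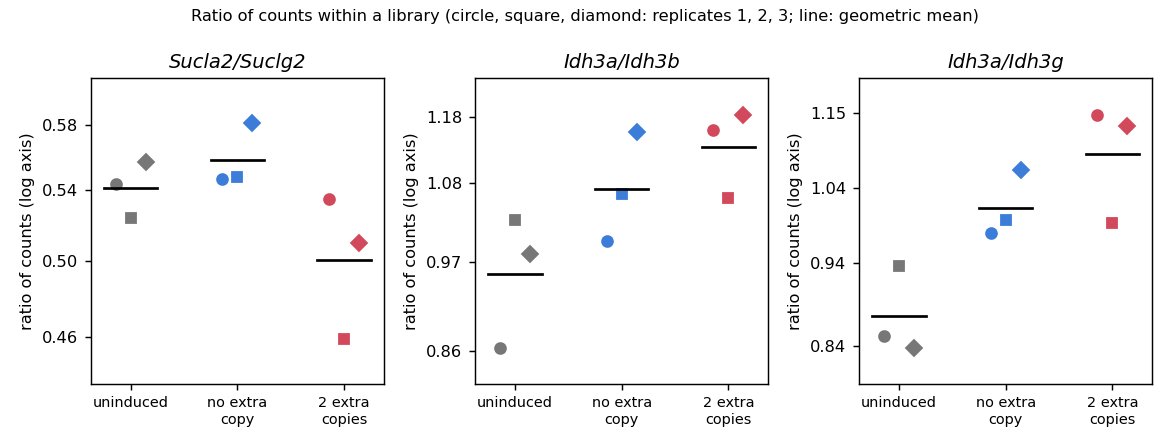
Ratio of counts of 2 subunits within each library on a log axis; circles, squares and diamonds are replicates 1, 2 and 3 and lines are geometric means (n = 3). Idh3a to Idh3g is 0.838 to 0.936 in uninduced libraries and 0.978 to 1.15 in induced ones, and Sucla2 to Suclg2 is lowest with 2 extra copies, at 0.459 to 0.535.

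2-Oxoglutarate dehydrogenase turns 2-oxoglutarate into succinyl-CoA, and Ogdh (ENSMUSG00000020456, chromosome 11, 6291633 to 6356642, plus strand) encodes its first component. Ogdh had 203, 207 and 220 CPM in uninduced libraries, 236, 232 and 249 CPM without an extra copy and 226, 223 and 234 CPM with 2 extra copies. Both induced groups lay above the uninduced libraries and overlapped each other. Ogdh was the 1 member whose mean was highest with no extra copy. It rose 1.14-fold there against uninduced cells (1.07 to 1.21, adjusted p = 0.00197), a call kept in 20 of 20 alternatives with adjusted p of at most 0.0236. With 2 extra copies it rose 1.08-fold against uninduced cells (1.02 to 1.15, adjusted p = 0.0365). This call was lost in 7 of 20 alternatives (adjusted p of 0.00645 to 0.164 over all), namely the fits without uninduced replicate 1 (0.164), uninduced replicate 2 (0.125) and replicate 3 with 2 extra copies (0.141), library size alone (0.0751), upper-quartile factors (0.0569), DESeq2 (0.102) and no filter on low counts (0.0781). Between the induced groups Ogdh was 0.954-fold (0.899 to 1.01, adjusted p = 0.300).

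Ogdh was also the 1 member of the 8 with a window that held CACGTG. It was found in 3 of its 6 windows, which cover 2 separate sites. Of all genes with a window 8.09% held it, and of tested genes 1224 of 10212 did. Both sites, read here on the plus strand, lie in exons of coding Ogdh transcripts in GENCODE, outside the coding sequence. They are 110 bases before the fourth and 141 before the fifth start in RefSeq. They are shown at chr11:6292048-6292077 and chr11:6292405-6292434 with CACGTG in capitals, and a match is not evidence that a factor binds there:
Ogdh site 1: gtcgcggcgtgtCACGTGgaccggtcgctc
Ogdh site 2: ggcaagaatcctCACGTGgataccatgtaa

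The most upstream window of Ogdh held no CACGTG and 1 copy of TGACGTCA, 51 bases before its start. These letters were in 3.64% of tested genes with a window and in 2.03% of all genes with one, and among the members in windows of Ogdh and Mdh2. The 250 bases on the plus strand before that start, chr11:6291347-6291596, hold no annotated exon base and are shown with TGACGTCA in capitals:
Ogdh upstream: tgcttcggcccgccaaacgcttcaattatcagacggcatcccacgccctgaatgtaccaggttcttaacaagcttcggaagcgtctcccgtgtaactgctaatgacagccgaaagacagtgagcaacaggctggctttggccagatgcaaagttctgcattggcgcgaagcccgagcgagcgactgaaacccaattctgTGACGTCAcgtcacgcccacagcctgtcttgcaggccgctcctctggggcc

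Succinyl-CoA ligase makes succinate and a nucleoside triphosphate. Suclg1 encodes the alpha subunit, which pairs either with the ADP-specific beta subunit of Sucla2 or with the GDP-specific one of Suclg2. Suclg1 (ENSMUSG00000052738, chromosome 6, 73248382 to 73276911, plus strand) had 92.9, 101 and 103 CPM in uninduced libraries, 98.9, 95.2 and 104 CPM without an extra copy and 98.2, 106 and 111 CPM with 2 extra copies, and all groups overlapped. None of its changes passed. They were 1.06-fold in both comparisons with 2 extra copies, with intervals of 0.982 to 1.15 (adjusted p = 0.318 against no extra copy, 0.271 against uninduced). With no extra copy against uninduced cells the value was 0.998-fold (0.923 to 1.08, adjusted p = 0.985), and its sign depended on the setting.

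Sucla2 (ENSMUSG00000022110, chromosome 14, 73525319 to 73596142, plus strand) had the lowest level of the 9. It had 54.1, 53.7 and 53.3 CPM in uninduced libraries, 56.6, 56.3 and 57.9 CPM without an extra copy and 58.9, 56.4 and 61.9 CPM with 2 extra copies. Both induced groups lay above the uninduced one and overlapped each other. With counts of 243 to 504 per library its intervals were wide, and no change passed. The values were 1.10-fold with 2 extra copies against uninduced cells (1.01 to 1.21, adjusted p = 0.105), 1.06-fold with no extra copy against uninduced cells (0.967 to 1.16, adjusted p = 0.459) and 1.04-fold between the induced groups (0.951 to 1.14, adjusted p = 0.596).

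Its alternative partner Suclg2, a member of the related list, rose with 2 extra copies, by 1.16-fold against cells with no extra copy (adjusted p = 0.00430). The counts of Sucla2 were 0.544, 0.524 and 0.557 times those of Suclg2 in uninduced libraries, 0.547, 0.548 and 0.581 times with no extra copy and 0.535, 0.459 and 0.510 times with 2 extra copies. The ratio was lower with 2 extra copies than with no extra copy without overlap, by 1.12-fold (exact permutation p = 0.1, the smallest possible, adjusted 0.225), and overlapped the uninduced group. Leaving out replicate 2 with 2 extra copies, the lowest library, brought the log2 difference from -0.16 to -0.097.

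Fumarase hydrates fumarate to malate, and Fh1 (ENSMUSG00000026526, chromosome 1, 175600374 to 175625635, minus strand) encodes it. Fh1 had 97.0, 108 and 103 CPM in uninduced libraries, 101, 99.1 and 92.4 CPM without an extra copy and 103, 113 and 110 CPM with 2 extra copies. The induced groups did not overlap, and the uninduced libraries spanned most of the range of both. With 2 extra copies Fh1 was 1.11-fold the level with no extra copy (1.02 to 1.20), which missed the threshold (adjusted p = 0.0637). Without replicate 1 with 2 extra copies this was log2 0.20 and passed (0.0107), and with RLE scaling factors it passed too (0.0486), while the alternatives ranged from 0.0107 to 0.223. Against uninduced cells it was 1.06-fold (0.981 to 1.14, adjusted p = 0.285) with 2 extra copies and 0.955-fold (0.885 to 1.03, adjusted p = 0.473) with no extra copy.

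Malate dehydrogenase of the matrix closes the ring by making oxaloacetate, and Mdh2 (ENSMUSG00000019179, chromosome 5, 135778480 to 135790398, plus strand) encodes it. Mdh2 had 335, 334 and 341 CPM in uninduced libraries, 350, 353 and 336 CPM without an extra copy and 346, 367 and 374 CPM with 2 extra copies. The libraries with 2 extra copies lay above the uninduced ones, replicate 1 by the least. Mdh2 rose 1.08-fold against uninduced cells (1.02 to 1.14, adjusted p = 0.0405). This was the least stable of the calls, lost in 12 of 20 alternatives (adjusted p of 0.00208 to 0.194 over all). Among these were the fits without uninduced replicate 1 (0.0951), replicate 2 (0.121) or replicate 3 (0.0594) and without replicate 2 (0.118) or replicate 3 (0.166) with 2 extra copies. Without replicate 1 with 2 extra copies it was kept (0.00208). The change was log2 0.11 and became 0.061 (adjusted p = 0.194) when the trend of each library over transcript length was fitted. That trend had slopes of 0.046, 0.019 and 0.018 log2 per doubling of length in uninduced libraries and 0.0064, -0.047 and -0.056 with 2 extra copies. Mdh2 was 1.05-fold (0.990 to 1.10, adjusted p = 0.287) between the induced groups, which passed without replicate 1 with 2 extra copies (log2 0.11, adjusted p = 0.0319, with 0.0319 to 0.658 over the alternatives), and 1.03-fold (0.975 to 1.09, adjusted p = 0.540) with no extra copy against uninduced cells.

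The window of Mdh2 is shown for its 3 copies of TCTCGCGAGA, 190, 63 and 29 bases before the RefSeq start. These letters were in 1.19% of the tested genes with a window, and 3 or more copies were found in 2 of 27025 genes. Because the motifs were chosen in part after reading these sequences, such shares describe the letters and are not a test. The first copy lies outside annotated exons of Mdh2 and the others in exons of coding Mdh2 transcripts, outside the coding sequence. The sites are read on the plus strand at chr5:135778449-135778478, chr5:135778576-135778605 and chr5:135778610-135778639, with the motif in capitals:
Mdh2 site 1: gccgggcctcTCTCGCGAGAtctcggaagt
Mdh2 site 2: gccgagcctgTCTCGCGAGAtttggctcaa
Mdh2 site 3: cttgcgcttcTCTCGCGAGAtcaggtggct

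CCGGAAG was found in the windows of Idh3b, 5 bases before the start, and of Idh3g, 104 bases before it. It was in 20.1% of tested genes with a window. The windows of Fh1, Suclg1, Sucla2 and Cs held none of the 4 motifs. A window without a match says only that these letters were absent from it.

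**Figure D3:**
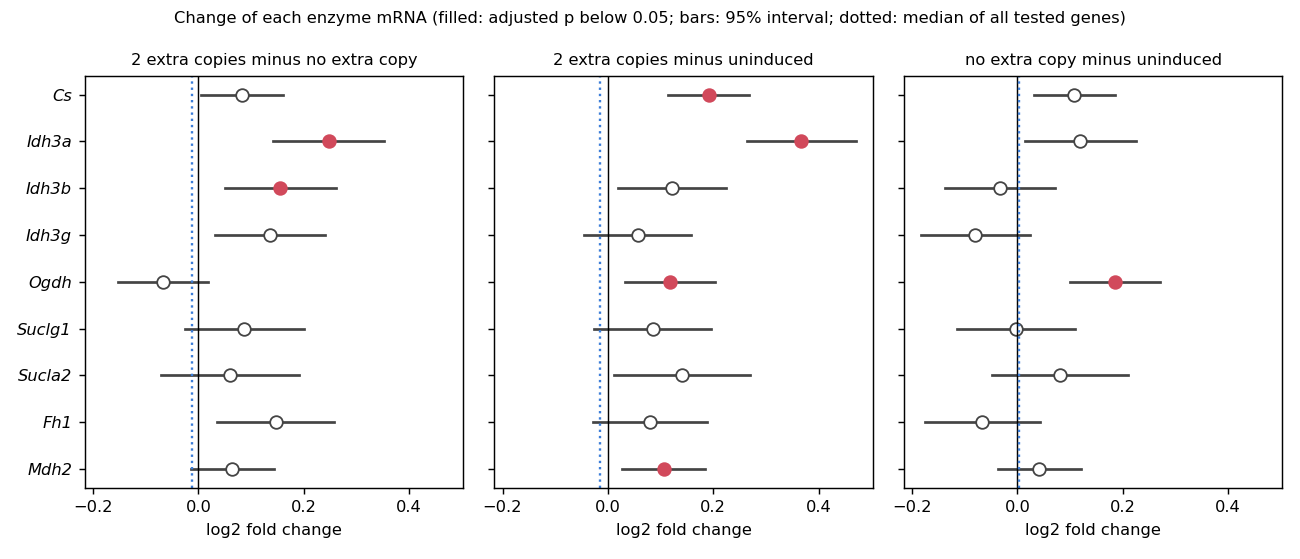
Log2 fold change of each enzyme mRNA in the 3 comparisons, with 95% intervals from the edgeR fit; filled points passed an adjusted p of 0.05 and the dotted line is the median of all tested genes. Idh3a lies farthest to the right in the first and second panels, at 0.25 and 0.37, and Ogdh in the third, at 0.19.

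Without replicate 1 with 2 extra copies the count against no extra copy grew from 2 to 6 of 9 (Cs, Idh3a, Idh3b, Idh3g, Fh1 and Mdh2), beside 10.7% of 13669 tested genes called higher. Against uninduced cells it went from 4 to 5 (Cs, Idh3a, Idh3b, Ogdh and Mdh2), beside 14.7%. Against no extra copy 1 member was called without replicate 2 with 2 extra copies, or without replicate 2 or replicate 3 with no extra copy, and the count was 2 without any of the other 5 libraries. Against uninduced cells 2 were called with 2 extra copies without replicate 3 of that group, uninduced replicate 1 or uninduced replicate 2. There the count was 3 without uninduced replicate 3 or replicate 2 with 2 extra copies, and 4 without any 1 library of the group with no extra copy. With no extra copy against uninduced cells the count was 2 without uninduced replicate 2 or without replicate 1 with 2 extra copies. When library size alone set the scaling, instead of TMM factors, the all-gene split between the induced groups moved from 1114 higher and 1034 lower to 774 and 1360, and the members called went from 2 to 1. No member was called lower in any comparison under any setting tried, DESeq2 and limma-voom included. Of all tested genes, edgeR called 7.70% lower between the induced groups. Against uninduced cells it called 12.1% lower for 2 extra copies and 6.39% for no extra copy. In a list of 9 genes, 0 lower is near these shares. At an unadjusted p below 0.05 in edgeR, 5, 6 and 3 members were higher in these comparisons and 0 lower. The share of all genes at that cut-off is not given here.

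The summed level of the 9 mRNAs was 1438 to 1478 CPM in uninduced libraries, 1520 to 1531 with no extra copy and 1552 to 1651 with 2 extra copies. The 3 groups did not overlap in this sum, in which Cs, Mdh2 and Ogdh carry the most weight. By mean level, 5 members (Cs, Idh3a, Suclg1, Sucla2 and Mdh2) were lowest in uninduced cells and highest with 2 extra copies. Another 3 (Idh3b, Idh3g and Fh1) were lowest with no extra copy and highest with 2 extra copies. Ogdh was lowest in uninduced cells and highest with no extra copy.

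The members also differed in how they moved from library to library. Over the 36 pairs of members, Pearson's r of log2 CPM over the 9 libraries ran from -0.34 for Idh3g with Ogdh to 0.90 for Idh3g with Fh1. Cs and Mdh2 gave 0.89, and Cs and Idh3a 0.84. These are descriptions, since the points share libraries, scaling and the 3 groups. Among 9468 tested genes averaging 10 CPM or more, the 5 whose pattern was most like the mean of the standardised members were Eef1b2 (r = 0.98), Sec13 (0.98), Rplp0 (0.98), Ndufs1 (0.98) and Tpt1 (0.98). They were picked as the highest of 9468 values over only 9 libraries, so the height of r follows in part from the choice and is not a test.

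Levels of different genes were compared per length, as counts per kilobase of the longest transcript scaled to a common total over tested genes, as in TPM. Mdh2 was highest, at 527 ± 12.5 (SD over all 9 libraries), followed by Cs at 280 ± 13.1. Idh3g at 140 ± 6.33, Idh3b at 134 ± 7.16 and Ogdh at 133 ± 8.59 did not differ beyond their spread. Below them came Idh3a at 112 ± 11.5, then Fh1 at 94.8 ± 4.48 and Suclg1 at 88.7 ± 3.53, which overlapped, and Sucla2 was lowest at 61.6 ± 2.46. Some longest transcripts keep introns. With the longest coding transcript as length, an alternative chosen after seeing the data, Mdh2 (545), Cs (270) and Sucla2 (57.8) kept their places, while Suclg1 moved up to 152 and Idh3g to 206. The order in the middle therefore depends on the length used.

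None of the 9 had another annotated transcript of at least 95% identity over at least 50% of its own longest coding transcript. The closest for Cs was Csl, over 54.5% of the length at 90.4% identity, which did not pass the filter on low counts. For Ogdh it was Ogdhl, over 65.4% at 77.2%. Nop56, which is tested and lies on the opposite strand, overlapped 0.146% of the exonic bases of Idh3b.

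Genes around the 9 enzymes were read from lists chosen by function. Their counts stand beside the shares of all tested genes, which were 8.30% higher and 7.70% lower between the induced groups, 12.8% and 12.1% with 2 extra copies against uninduced cells, and 7.10% and 6.39% with no extra copy against uninduced cells. In lists this short, 1 or 2 called genes are often near these shares. Of 8 other genes of cycle enzymes and their subunits, 2 rose and 0 fell with 2 extra copies against no extra copy. The called genes were Dlst, the second component of the 2-oxoglutarate dehydrogenase complex, at 1.18-fold (adjusted p = 0.000177), and Suclg2. Against uninduced cells 3 rose with 2 extra copies and 1 fell. Sdhd, an anchor subunit of succinate dehydrogenase, rose 1.31-fold (adjusted p = 5.34e-07) and Dlst 1.18-fold, and Sdha, its flavoprotein subunit, was 1.11-fold lower (0.00882). With no extra copy 1 rose against uninduced cells, Sdhd at 1.22-fold, and 0 fell. Without replicate 1 with 2 extra copies 3 rose against no extra copy, and 4 rose and 0 fell against uninduced cells, since Sdha then missed the threshold (0.0902), as it did without uninduced replicate 2 (0.0614) and with DESeq2 (0.0729). The first and the second component of 1 complex did not share their order of groups. Dlst averaged 149 CPM in the uninduced group, 149 CPM without an extra copy and 176 CPM with 2 extra copies, against 210, 239 and 227 CPM for Ogdh.

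Entry of pyruvate was covered by 13 genes, of which 2 rose and 0 fell with 2 extra copies against no extra copy. These were Pdk1, a kinase that inhibits pyruvate dehydrogenase, at 1.19-fold (adjusted p = 0.000209), and Dlat, the acetyltransferase component of that complex, at 1.15-fold (0.0238). Against uninduced cells 3 rose and 0 fell with 2 extra copies, and 2 rose and 1 fell with no extra copy. Mpc1, a subunit of the mitochondrial pyruvate carrier, rose 1.40-fold and 1.38-fold in these comparisons and Pdha1 1.10-fold in both, while Pdk1 was 1.12-fold lower with no extra copy. Mpc2, the other subunit of that carrier, was not called in any comparison of the main analysis. Against uninduced cells it was 0.848-fold with 2 extra copies and 1.20-fold with no extra copy. Between the induced groups it was 0.708-fold (edgeR adjusted p = 0.0765). With library size alone, DESeq2 or limma-voom, and without replicate 2 with 2 extra copies or replicate 1 or replicate 3 with no extra copy, 1 of the 13 rose between the induced groups, because Dlat missed the threshold (0.0544 to 0.147). The log2 change of Pdk1 with no extra copy, -0.16, missed the threshold at -0.14 when uninduced replicate 1 (0.0822) or replicate 2 of the group lacking an extra copy (0.106) was left out, and at -0.16 with DESeq2 (0.110). Mpc1, at 9.61 CPM in uninduced cells, was log2 0.47 higher with no extra copy, and this missed the threshold at log2 changes of 0.42 to 0.48 without uninduced replicate 1 (0.0501) or replicate 2 (0.0541), without replicate 3 with no extra copy (0.0603) and with DESeq2 (0.136). With 2 extra copies its log2 change was 0.48, and 0.49 with DESeq2, which did not call it (0.0673).

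Of 9 genes of glutamine use and anaplerosis 8 could be tested, Me3 being too low. With 2 extra copies against no extra copy 2 rose and 0 fell, namely Got2, the mitochondrial aspartate aminotransferase, at 1.16-fold (adjusted p = 0.000143), and Aldh18a1, which makes the proline precursor from glutamate, at 1.19-fold (0.00210). Against uninduced cells both induced groups had 3 of 8 lower, with 2 higher with 2 extra copies and 1 higher with no extra copy. Aldh18a1 was 1 of the 3, at 1.21-fold lower with 2 extra copies (0.000241) and 1.43-fold lower with no extra copy (1.28e-08), so its level with 2 extra copies lay between those of the other groups. Pck2, the mitochondrial PEP carboxykinase, fell from 132 CPM to 75.1 with 2 extra copies (1.76-fold lower, adjusted p = 7.57e-13) and to 73.1 with no extra copy (1.82-fold lower, 1.70e-13). Gpt2, the mitochondrial alanine aminotransferase, was 1.38-fold and 1.42-fold lower. These falls were larger than any change among the 9 enzymes. Glud1, glutamate dehydrogenase, rose 1.20-fold with 2 extra copies and 1.13-fold with no extra copy.

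Of 7 cytosolic and NADP-dependent counterparts, edgeR, DESeq2 and limma-voom each called 0 in either direction between the induced groups. At an unadjusted p below 0.05 in edgeR, 0 were higher and 1 lower. With library size alone 1 was called lower there. Against uninduced cells 2 rose and 0 fell in each induced group by edgeR and limma-voom, while DESeq2 called 0 with 2 extra copies and 1 in the group without any. They were Mdh1, the cytosolic malate dehydrogenase, at 1.12-fold with 2 extra copies and 1.16-fold with no extra copy, and Idh2, the NADP-dependent mitochondrial isocitrate dehydrogenase, at 1.12-fold in both. Without uninduced replicate 2 the calls of Mdh1 (0.0534) and Idh2 (0.0691) with 2 extra copies and of Idh2 with no extra copy (0.120) were lost. With the length offset, the fit of each library's length trend, Idh2 missed the threshold in both comparisons (0.0526 and 0.0659). The call of Idh2 with no extra copy was also lost without uninduced replicate 3 (0.0689) and without replicate 1 (0.121) or replicate 3 (0.101) with no extra copy, and Mdh1 with 2 extra copies without replicate 3 of that group (0.110). Of 6 mitochondrial carriers 1 rose and 0 fell between the induced groups, Slc25a12, an aspartate/glutamate carrier, at 1.27-fold (adjusted p = 7.16e-05). Against uninduced cells 3 rose with 2 extra copies, with Slc25a12 at 1.40-fold and the glutamate carrier Slc25a22 at 1.28-fold, and edgeR, DESeq2 and limma-voom each called 0 with no extra copy (3 higher and 0 lower at an unadjusted p below 0.05 in edgeR).

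A list of 16 genes, named mitochondrial content in the plot of the related lists, held genes of import, chaperones, the outer and inner membranes and mitochondrial DNA upkeep and the nuclear transcription regulators Nrf1, Gabpa and Ppargc1b. These are mRNA levels, and the amount of mitochondria was not measured. With 2 extra copies 9 rose and 1 fell against no extra copy, and 10 rose and 0 fell against uninduced cells; with no extra copy 2 rose and 0 fell, or 12.5% of the list beside 7.10% of all tested genes. DESeq2 called 6 higher, 6 higher and 1 higher in these comparisons and 0 lower. The median log2 change was 0.16, 0.18 and 0.028 in these comparisons, beside 0.088, 0.12 and 0.042 for the 9 cycle enzymes. The chaperonin Hspd1 rose 1.19-fold between the induced groups (adjusted p = 9.25e-07) and 1.32-fold against uninduced cells, and its partner Hspe1 1.22-fold and 1.34-fold. Polg, the mitochondrial DNA polymerase, was 1.10-fold lower between the induced groups, a call lost in 9 of 20 alternatives, among them without replicate 1 (0.113), replicate 2 (0.0532) or replicate 3 (0.137) with 2 extra copies and without replicate 1 (0.0732) or replicate 3 (0.155) with no extra copy. Its log2 change of -0.14 became -0.060 with the length offset (0.432) and -0.062 with the offset and the replicate block together (0.401), and DESeq2 (0.212) and the fit with no filter on low counts (0.0738) did not call it. Without replicate 1 with 2 extra copies, 3 pyruvate genes, 3 of glutamine use, 1 counterpart, 2 carriers and 9 genes of the mitochondrial content list rose between the induced groups, and 0 fell in any of these lists. Whether these genes and the cycle enzymes changed by different amounts was not tested.

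**Figure D4:**
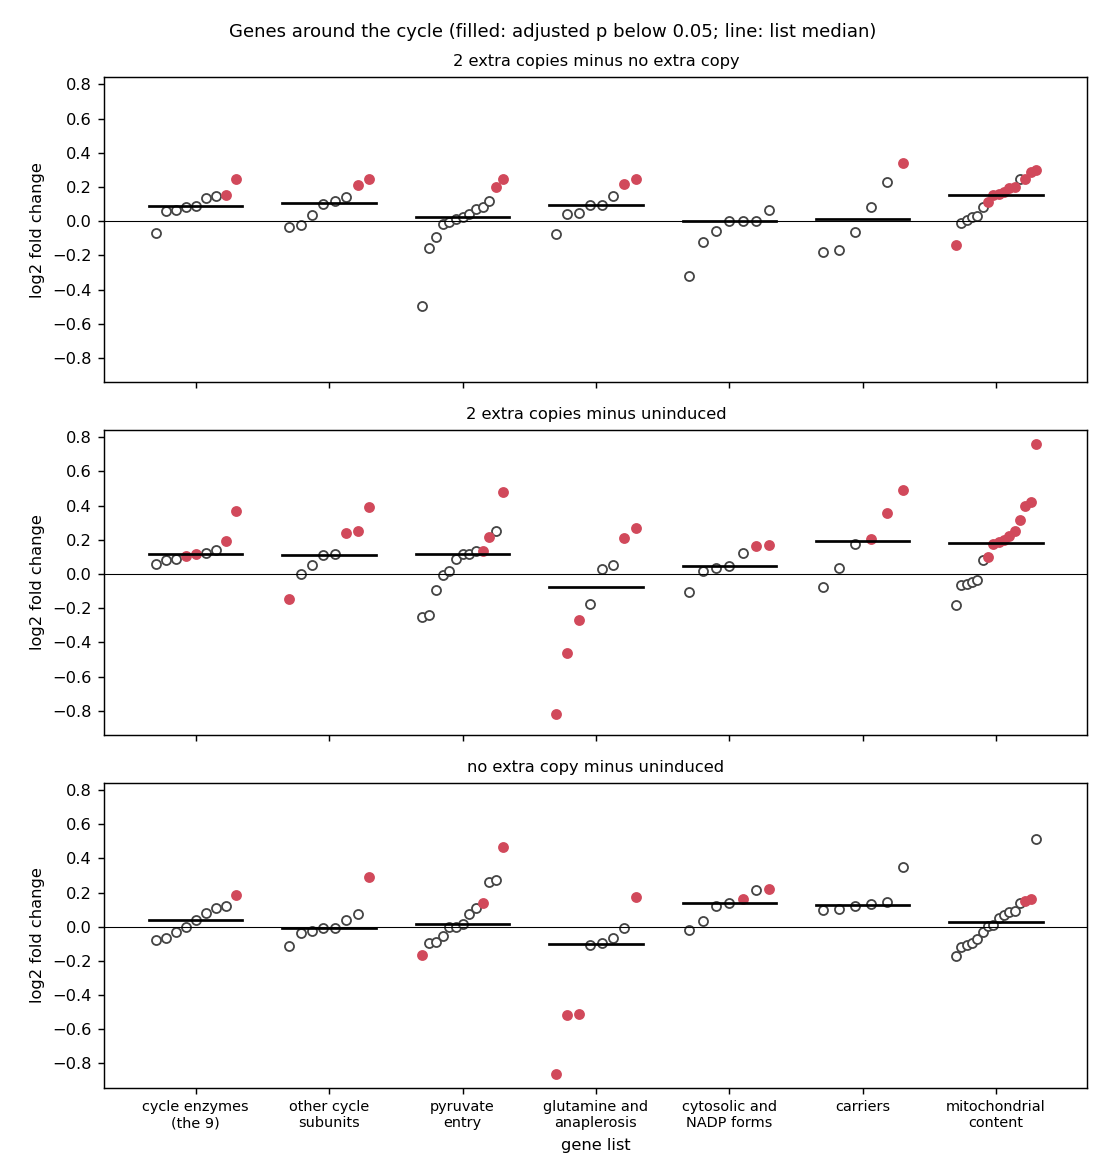
Log2 fold change of every tested gene in the 9 cycle enzymes and 6 related lists, in the 3 comparisons; filled points passed an adjusted p of 0.05 and lines are list medians. The mitochondrial content list has 9 of 16 genes called higher in the upper panel, and Pck2 is the lowest point in the middle and lower panels.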

How the data were processed

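Values are the deposited expected counts of the authors' RSEM run (version 1.17, per the submitters' processing notes). These notes list Picard, cutadapt and limma as well, with no step given. Column names give GRCm38 with annotation release 84, per the file headers. Neither the aligner nor the use of strand in counting is given in sources used here. Libraries were total RNA, read as single ends of 75 bases, per the labels' protocols. In such counts a read that fits several genes is shared among them. Names, positions and lengths came from GENCODE M21 (35432 of 35771 identifiers matched), and promoter windows, without chromosome 18, from RefSeq (GRCm38.p6).

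Counts were rounded to whole numbers. edgeR 4.0.16 in R 4.3.3 (filterByExpr by group, TMM, robust quasi-likelihood fit of all 9 libraries, 1 coefficient per group) tested 13424 genes, holding 99.8% of counts, with Benjamini-Hochberg adjustment. The common biological coefficient of variation was 0.0394. Standard errors follow from the log2 change and the F statistic, and intervals are 95% t intervals. Ratios were tested by a two-sided exact permutation test. Totals ranged from 4165286 to 8872303 counts, so counting noise matters most for Sucla2. Alternatives used DESeq2 1.42.0, limma-voom 3.58.1, other scaling and filters, a replicate block, a length offset and leaving out each library. Transcripts were compared with blastn 2.17.0+. The edgeR fit was also run on simulated counts with known changes, whose recovery is not given here. Those counts held no library that stands apart and no length trend, and no result above rests on them.

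The members and lists were chosen with earlier results of these data known. Named by rule were all 9 members, Myc and Mycn, up to 2 genes per direction with the smallest p among called genes of each related list, and the 5 genes most like the members' mean. Genes outside the rule (Csl, Ogdhl, Nop56, Me3, Mpc2 and those of the marker lists) are named for copies, overlap or membership, some after their values were seen.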

Additional observations from a re-analysis of the deposited data

How the results depend on the processing

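Each change of a member was recomputed under 20 alternatives, giving 540 values, of which 493 kept direction and side of the threshold, 25 lost the call, 16 gained one and 6 changed sign, all 6 for Suclg1 with no extra copy against uninduced cells. That log2 change, -0.0029, became 0.012 with library size alone, 0.0019 with DESeq2 and 0.00090 with the replicate block, and ran from -0.046 to 0.034 when 1 library was left out. Members called higher between the induced groups numbered 2. The count was 1 with library size alone, DESeq2 or limma-voom, 3 with RLE factors and with the replicate block and length offset together, and 1 to 6 with 1 library left out. Against uninduced cells 4 were called with 2 extra copies, 2 with library size alone, upper-quartile factors, DESeq2 or no filter on low counts, and 2 to 5 with 1 library left out. With no extra copy against uninduced cells 1 was called, 2 with library size alone, with only the 2 groups compared, with the length offset alone or with the replicate block, and 1 to 2 with 1 library left out. The replicate block brought the count between the induced groups to 4 (Idh3g and Fh1 added). Correlations of same-numbered libraries' deviations ran from -0.097 to 0.28 over 6103 genes, and those of differently numbered libraries from -0.21 to 0.14. These ranges overlap and do not settle whether numbers pair the samples. Over all genes, higher and lower calls were 1114 and 1034, 1721 and 1629, and 953 and 858 in the 3 comparisons. They were 774 and 1360, 1494 and 1848, and 1105 and 742 with library size alone, and 658 and 417, 1088 and 801, and 399 and 407 with DESeq2. With 1 library left out they ran from 750 to 1466 and 647 to 1098, 1306 to 2004 and 1106 to 1715, and 622 to 1083 and 555 to 1118; an arm of 2 then shares its spread with the other groups. Of 840 values of other named genes 43 lost their call and 0 changed sign. Of 720 counts over the related lists 63 differed by over 1.5 times, among them the mitochondrial content genes higher with 2 extra copies than in uninduced cells, 10 by edgeR and 6 by DESeq2. The log2 ratio of Sucla2 to Suclg2, -0.16, -0.11 and 0.044, ran from -0.21 to -0.097, -0.16 to -0.052 and 0.015 to 0.065 with 1 library left out. Levels per length with the union of exons were 196 for Cs, 76.9 for Idh3a, 108 for Idh3b, 71.7 for Suclg1, 46.4 for Sucla2, 99.3 for Fh1 and 320 for Mdh2. With the longest coding transcript, chosen after seeing the data, they were 159 for Idh3b, 206 for Idh3g, 152 for Suclg1, 57.8 for Sucla2, 88.9 for Fh1 and 545 for Mdh2. The cause of these shifts was not tested. Depth limits the changes of Sucla2 most, with 243 to 504 counts per library.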
